A study of Mus musculus with 18 samples.

Results

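Spic and 9 genes of iron and heme handling were described across 17 libraries of sorted mouse brain cells, as 10 of the 35869 gene rows in the files. The set was chosen on the rise of Spic in KO microglia, and the other 9 genes were listed for their roles in heme breakdown (Hmox1), iron export (Slc40a1), iron transport out of endosomes (Slc11a1 and Slc11a2), iron storage (Fth1 and Ftl1), uptake and carriage of transferrin-bound iron (Tfrc and Trf) and iron oxidation (Cp). The study asked how cells change when the gene of the secreted signal TGF-beta1, Tgfb1, is deleted through a Cre recombinase made in Cx3cr1-expressing cells, which include microglia and other brain macrophages. RNA was sequenced from microglia (KO, n = 4, and control, n = 4) and astrocytes (KO, n = 4, and control, n = 5) that were isolated enzymatically and sorted by flow cytometry. KO animals were Cx3cr1CreERT2-Tgfb1fl/fl, control animals carried Cx3cr1CreERT2 alone, and both were on the C57BL/6 background. Every animal, controls included, received 5 oral doses of tamoxifen at 180 mg/kg, the drug that switches the Cre enzyme on. The animals' ages and the interval after tamoxifen were not given in the sources used here. The labels number the animals, so p-values measure the spread between animals.

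Cells balance iron entry, storage and exit. Transferrin, the protein of Trf, carries iron in plasma and is taken up by the transferrin receptor, the protein of Tfrc, after which iron leaves the endosome through divalent metal transporters. Ferritin, built of the heavy chain (Fth1) and light chain (Ftl1), stores iron inside the cell, and ferroportin (Slc40a1) releases it, helped by the ferroxidase ceruloplasmin (Cp). Macrophages of the spleen that clear old red cells take in heme, open its ring with heme oxygenase 1 (Hmox1) and pass the iron on, and in mice these cells depend on the transcription factor SpiC (Spic).

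Part of this control acts on RNA hairpins called iron-responsive elements, to which iron regulatory proteins bind when iron is short. Bound in a 5′ untranslated region, they block translation, and bound in the 3′ untranslated region of Tfrc they protect the RNA from decay. The hairpins are shown because they mark which members hold a match to the pattern below, and at which end of the RNA. They were searched in GENCODE M21 transcripts (GRCm38, mm10) as an unpaired C, 5 bases, the loop CAGTG followed by A, C or T, and 5 bases that pair with the first 5, G-T pairs allowed, on the transcript strand alone. The capitals mark the 6-base loop, the letters are written as DNA, and each line holds 30 bases.
Fth1, 5′ untranslated region, exon 1, chr19:9982731-9982760, plus strand: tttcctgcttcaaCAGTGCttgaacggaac
Ftl1, 5′ untranslated region, exon 1, chr7:45459779-45459808, minus strand: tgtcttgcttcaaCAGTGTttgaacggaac
Slc40a1, 5′ untranslated region, exon 1, chr1:45925465-45925494, minus strand: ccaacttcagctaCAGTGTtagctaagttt
Tfrc, 3′ untranslated region, exon 19, chr16:32631218-32631247, plus strand: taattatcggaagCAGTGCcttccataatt
Tfrc, 3′ untranslated region, exon 19, chr16:32631597-32631626, plus strand: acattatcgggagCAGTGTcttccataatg
Tfrc, 3′ untranslated region, exon 19, chr16:32631662-32631691, plus strand: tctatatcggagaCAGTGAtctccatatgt
Tfrc, 3′ untranslated region, exon 19, chr16:32631709-32631738, plus strand: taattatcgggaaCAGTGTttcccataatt
The pattern matched 1 site each in Fth1, Ftl1 and Slc40a1 and 4 sites in Tfrc. It occurs in 23 of 21181 genes with an annotated 5′ untranslated region (0.109%) and in 110 of 21824 genes with a 3′ untranslated region (0.504%). In the other 6 members these letters were not found. A hairpin of another shape would not be seen by this search, so these members may still carry the element.

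Tgfb1 itself was listed at 1.8, 1.3, 1.7 and 2.0 TPM (a level scaled by gene length and to the same total in each library) in KO microglia, against 3.4, 2.9, 2.9 and 2.8 TPM in control microglia, and at 0.3 TPM or less in all astrocyte libraries. The 7 microglial markers summed to 7813 to 8539.9 TPM in KO microglia and 35571 to 39385 TPM in control microglia, and all 7 fell. The 13 markers of border-associated macrophages, which live at the brain surface and along vessels, summed to 6540.3 to 7279.6 TPM in KO microglia and 498 to 889.6 TPM in control microglia, with 9 higher, 2 lower and 2 not past the threshold. The calls of both lists are from the limma test given below, in which 14.2% of all 13054 genes tested rose and 14.2% fell. None of the 13 border-associated markers was at 0 in every library of either group. In the astrocyte sort, the 10 astrocyte markers summed to 16339 to 29143 TPM in KO and 22529 to 25897 TPM in control libraries, and the microglial markers to 243 to 402 TPM in KO and 303 to 368 TPM in control libraries. Xist RNA ranged from 28.6 to 48.3 TPM over every KO library together with the libraries of control animals 1 and 2. It was at 0 in control animals 3, 4 and 5, which had 46.0 to 56.3 TPM of the Y-linked Ddx3y. The part of either pattern in the results was not tested, and values against each kind of control are given where they differ most.

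Spic was high in KO microglia and low in the other 3 groups. It lies on chromosome 10 (88674772 to 88685015, minus strand). KO microglia held 272, 272, 232 and 219 TPM of Spic, against 1.7, 4.9, 1.0 and 5.1 TPM in control microglia. The groups did not overlap, and the lowest KO library was far above the highest control library. On the log2(TPM + 1) scale the difference was 6.06 ± 0.34 (SE), and mean TPM was 78.3-fold higher in KO microglia. These values chose the set, so they are a description with no test. Against control animals 1 and 2 the difference was 5.96, and against control animals 4 and 5 it was 6.15. By mean TPM, Spic ranked 716 of all genes in KO microglia and 9853 in control microglia. In bulk samples, more cells with an RNA and more RNA per cell cannot be told apart, here and for every gene below.

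**Figure D1:**
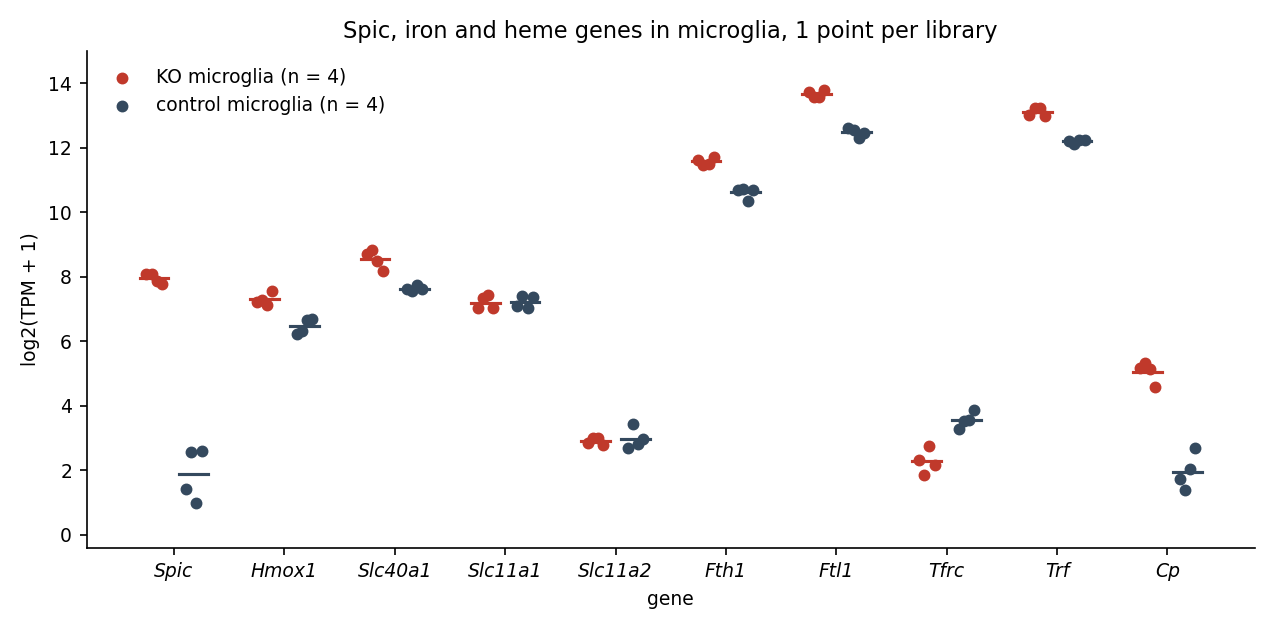
Level of each member as log2(TPM + 1) on the y axis, 1 point per library, with a bar at the group mean; KO microglia (n = 4) stand left of control microglia (n = 4) for each gene on the x axis. The groups overlap for Slc11a1 and Slc11a2 and are apart for the other genes, among them Spic, whose rise chose the set. Tfrc is the only one of these that is lower in KO microglia. The share of all genes with groups apart was not counted.

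Of the other 9 members, all of which passed the filter on low values in microglia, 6 rose in KO microglia (Hmox1, Slc40a1, Fth1, Ftl1, Trf and Cp), 1 fell (Tfrc) and 2 did not pass the test (Slc11a1 and Slc11a2). The test was limma's moderated test at a Benjamini-Hochberg adjusted p of 0.05 over 13054 genes, of which 28.4% passed. The median difference of the 9 was 0.91, beside 0.0040 over all genes tested. As the list was put together with the rise of Spic and other results of these libraries known, nothing is read from this count against that background.

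Hmox1 and Slc40a1 both rose in KO microglia. Hmox1 (chromosome 8, 75093621 to 75100589, plus strand) codes for the enzyme that opens the heme ring and frees its iron. Hmox1 stood at 147, 155, 139 and 188 TPM in KO microglia and at 74.2, 79.1, 100.3 and 102 TPM in control microglia. All KO libraries were higher than all control libraries, by 0.82 ± 0.14 (SE) on the log2 scale (limma, adjusted p = 0.00179). The size of the rise differed with the kind of control, at 1.02 against control animals 1 and 2 (adjusted p = 0.00187) and 0.62 against control animals 4 and 5 (adjusted p = 0.0101).

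Slc40a1 (chromosome 1, 45908068 to 45926523, minus strand) codes for ferroportin, the only known exporter of iron ions from mammalian cells. Its RNA was at 419, 458, 361 and 291 TPM in KO microglia, against 197, 188, 211 and 195 TPM in control microglia. The control libraries lay close together and the KO libraries spread more widely above them. The difference was 0.93 ± 0.14 (SE) (limma, adjusted p = 0.000713).

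The endosomal transporters differed from the members above. Slc11a1 (chromosome 1, 74375195 to 74386062, plus strand) codes for NRAMP1, which moves metal ions out of the phagosome of macrophages. Its level was 129, 160.0, 170.0 and 129 TPM in KO microglia and 136, 167, 131 and 165 TPM in control microglia. The groups overlapped over their whole range, and the difference of -0.03 had a 95% interval of -0.33 to 0.27 (limma, adjusted p = 0.896). Slc11a2 (chromosome 15, 100387898 to 100425072, minus strand) codes for DMT1, which releases iron from endosomes after uptake by the transferrin receptor. With 6.2, 7.1, 7.1 and 5.9 TPM in KO microglia and 5.5, 9.8, 6.0 and 6.9 TPM in control microglia, it was far below Slc11a1. These groups overlapped as well, with a difference of -0.06, an interval of -0.49 to 0.36 and an adjusted p of 0.843 (limma).

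Both ferritin chains rose, and they are among the most abundant RNAs of these cells. Fth1 (chromosome 19, 9980598 to 9985098, plus strand) codes for the heavy chain, which oxidises iron as it enters the ferritin shell. Fth1 reached 3166, 2810.2, 2887 and 3316 TPM in KO microglia, against 1656, 1683, 1309 and 1661 TPM in control microglia, with no overlap. The difference was 0.95 ± 0.10 (SE) (limma, adjusted p = 9.27e-05). Ftl1 (chromosome 7, 45457944 to 45459884, minus strand) codes for the light chain, which favours the deposit of iron inside the shell. Its values were 13523, 12034, 12149 and 14031 TPM in KO microglia and 6288, 5979, 5031 and 5639 TPM in control microglia. The lowest KO library stood above the highest control library, and the difference was 1.18 ± 0.09 (SE) (limma, adjusted p = 1.19e-05).

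By mean TPM, Ftl1 ranked 2 among all genes in KO microglia and 12 in control microglia, and Fth1 ranked 35 in KO microglia and 77 in control microglia. Fth1 and Ftl1 together made up 1.67, 1.48, 1.5 and 1.73% of all TPM in KO microglia, against 0.794, 0.766, 0.634 and 0.73% in control microglia. The light chain had 4.27, 4.28, 4.21 and 4.23 times the TPM of the heavy chain in KO microglia and 3.8, 3.55, 3.84 and 3.39 times in control microglia, again without overlap. Of the 61-base windows in Ftl1 transcripts, 55.3% also occur in other annotated genes, among them the ferritin copies Ftl1-ps1, Ftl1-ps2 and Ftl2-ps, and 1.27% of those in Fth1 do. How reads that map to several places were counted is not given in the sources used here, so the level of Ftl1 is uncertain.

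Receptor and ligand of transferrin uptake moved in opposite directions. Tfrc (chromosome 16, 32608920 to 32632794, plus strand), the transferrin receptor, stood at 4.0, 2.6, 5.8 and 3.5 TPM in KO microglia and at 8.7, 10.6, 10.8 and 13.7 TPM in control microglia. All KO libraries were below all control libraries, with a difference of -1.29 ± 0.22 (SE) (limma, adjusted p = 0.002). Mean TPM of Tfrc was 3.98 ± 1.35 in KO microglia and 11 ± 2.06 in control microglia (SD, n = 4 each). Of the 4 members with a hairpin shown above, 3 have it in the 5′ untranslated region, and these rose. Tfrc, with it in the 3′ untranslated region, fell. Other members may carry hairpins that the search could not see, so this describes these 4 alone. Among the tested members without a match, Hmox1, Trf and Cp also rose, and Slc11a1 and Slc11a2 did not pass. TPM measures RNA, not translation, and binding to the hairpins was not measured.

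Trf (chromosome 9, 103204001 to 103230444, minus strand), transferrin, is made in the brain mainly by oligodendrocytes and the choroid plexus. KO microglia held 8167, 9609, 9542 and 8089 TPM of Trf, against 4717, 4468, 4816 and 4846 TPM in control microglia. The groups were far apart compared with their spread, with a difference of 0.91 ± 0.08 (SE) (limma, adjusted p = 3.25e-05). The 12 oligodendrocyte markers summed to 85.1, 119, 79.0 and 79.3 TPM in KO microglia and 175, 158, 68.1 and 65.7 TPM in control microglia. Trf was 96, 80.9, 121 and 102 times that sum in KO microglia and 26.9, 28.3, 70.7 and 73.8 times in control microglia, with no overlap. The 8 ependymal and choroid plexus markers summed to 284, 457, 6.5 and 443 TPM in KO microglia and 16.4, 1295, 188 and 501 TPM in control microglia. The part of such cells in the level of Trf was not tested. Of the 61-base windows in Trf transcripts, 57.9% also occur in other annotated genes, among them Gm20425, a gene annotated over the same exons on the same strand.

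Cp (chromosome 3, 19957054 to 20009145, plus strand), ceruloplasmin, had the largest difference among the 9 genes. Its level was 34.7, 38.9, 34.2 and 22.9 TPM in KO microglia and 2.3, 1.6, 3.1 and 5.5 TPM in control microglia. The lowest KO library stood well above the highest control library. The difference was 3.09 ± 0.29 (SE) (limma, adjusted p = 3.63e-05), and mean TPM was 10.5-fold higher in KO microglia. Against control animals 1 and 2 it was 3.50, and against control animals 4 and 5 it was 2.68. Exons of Cp overlap those of Hps3 on the opposite strand, which stood at 20.9 ± 2.36 TPM in KO microglia and 24.4 ± 4.05 TPM in control microglia (SD, n = 4 each). The strand setting of the counting is not given in the sources used here, so reads of the 2 genes may not have been told apart where they overlap.

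Further genes of these pathways were counted beside the 28.4% of all genes that passed the same test, 14.2% in each direction. Of 33 further genes of iron uptake, storage and control, 20 were tested in microglia, of which 3 rose, 3 fell and 14 did not pass, with a median difference of 0.03, so the share that passed was near that of all genes. Ncoa4, the receptor that brings ferritin to lysosomes, rose, with 65.4 ± 8.43 TPM in KO microglia and 34.6 ± 5.75 TPM in control microglia (SD, n = 4 each), a difference of 0.90 ± 0.15 (SE) (limma, adjusted p = 0.00152). Slc25a37, mitoferrin 1 of the mitochondrial membrane, fell, with 7.43 ± 2.19 TPM in KO microglia and 22.9 ± 4.55 TPM in control microglia, a difference of -1.52 ± 0.22 (SE) (limma, adjusted p = 0.00058). Cisd1, an iron-sulphur protein of the outer mitochondrial membrane, also fell, with 79.5 ± 10.7 TPM in KO microglia and 119.6 ± 16.1 TPM in control microglia. Aco1 and Ireb2, the genes of both iron regulatory proteins, did not pass the test: Aco1 had 67.8 ± 12.7 TPM in KO microglia and 59.3 ± 8.21 TPM in control microglia, and Ireb2 had 15.4 ± 1.85 TPM in KO microglia and 18.9 ± 4.51 TPM in control microglia.

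Of 14 further genes of heme uptake, breakdown and export, 12 were tested, of which 4 rose, 2 fell and 6 did not pass, with a median of -0.08, beside 28.4% passing over all genes. Both biliverdin reductases, which act directly after heme oxygenase, rose. Blvrb was at 425 ± 22 TPM in KO microglia and 76.2 ± 15.8 TPM in control microglia (SD, n = 4 each), a difference of 2.48 ± 0.14 (SE) (limma, adjusted p = 1.53e-06), and Blvra was at 85.6 ± 6.51 TPM in KO microglia and 47 ± 4.4 TPM in control microglia. Slc46a1, a folate transporter also described as a heme carrier, fell, with 83.3 ± 6.77 TPM in KO microglia and 308 ± 29.8 TPM in control microglia, a difference of -1.87 ± 0.10 (SE) (limma, adjusted p = 1.25e-06). Abcg2, an exporter of porphyrins and many drugs, was at 13.3 ± 0.427 TPM in KO microglia and 23.5 ± 0.985 TPM in control microglia and fell too. Cd163, the receptor for hemoglobin bound to haptoglobin, had 13.3 ± 3.53 TPM in KO microglia and 8.88 ± 4.3 TPM in control microglia and did not pass the test (limma, adjusted p = 0.181).

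Heme synthesis had 14 genes, of which 13 were tested, 1 rose, 3 fell and 9 did not pass (median -0.09), a share near the 28.4% of all genes. Alas1, which makes the first precursor of heme, fell, with 77.1 ± 6.49 TPM in KO microglia and 110.0 ± 9.2 TPM in control microglia. Uros, an enzyme later in the pathway, and Tmem14c, a porphyrin transporter of mitochondria, fell as well, by differences of -0.69 ± 0.19 (SE) and -0.47 ± 0.13 (SE). Tspo, a protein of the outer mitochondrial membrane, rose, with 419 ± 32.7 TPM in KO microglia and 256 ± 49.5 TPM in control microglia.

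The NRF2 list held 16 genes, most of them targets of this transcription factor, which also acts on Hmox1. It includes Nfe2l2, the gene of NRF2 itself, and its regulator Keap1, neither of which passed. Of 13 tested genes, 2 rose, 2 fell and 9 did not pass (median -0.06), again near the 28.4% of all genes. Prdx1, a peroxiredoxin, was at 1153 ± 75.2 TPM in KO microglia and 604 ± 120.5 TPM in control microglia and rose, as did G6pdx, the first enzyme of the pentose phosphate pathway, with 151 ± 6.63 TPM in KO microglia and 107 ± 19.3 TPM in control microglia. Gclc, which makes the first step of glutathione synthesis, was at 2.18 ± 0.903 TPM in KO microglia and 6.1 ± 1.69 TPM in control microglia and fell, as did Txnrd1, thioredoxin reductase, with 2.3 ± 0.231 TPM in KO microglia and 4.68 ± 0.90 TPM in control microglia.

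A list of 15 genes was drawn up for red pulp macrophages of the spleen, the cells in which Spic is best known. Its genes are not all particular to those cells. Of the 15, 10 passed the filter on low values in microglia. Pparg was at no more than 0.1 TPM in control microglia and met the filter through KO microglia alone, so it is given as values without a test. Of the other 9, 4 rose, none fell and 5 did not pass (median 0.72), beside 14.2% of all genes rising. Vcam1, an adhesion molecule, was at 936 ± 273 TPM in KO microglia and 60.4 ± 35.8 TPM in control microglia (SD, n = 4 each), a difference of 4.06 ± 0.40 (SE) (limma, adjusted p = 5.09e-05). Mrc1, the mannose receptor, had 1629 ± 252 TPM in KO microglia and 108 ± 50.9 TPM in control microglia; it is also in the list of border-associated macrophage markers. Axl, a receptor for dying cells, had 38.0 ± 7.53 TPM in KO microglia and 1.75 ± 0.827 TPM in control microglia. Pparg, a nuclear receptor, had 3.08 ± 0.842 TPM in KO microglia and 0.025 ± 0.050 TPM in control microglia. The 3 genes Itgad, Spib and Clec4f were at 0 in every KO microglia library.

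**Figure D2:**
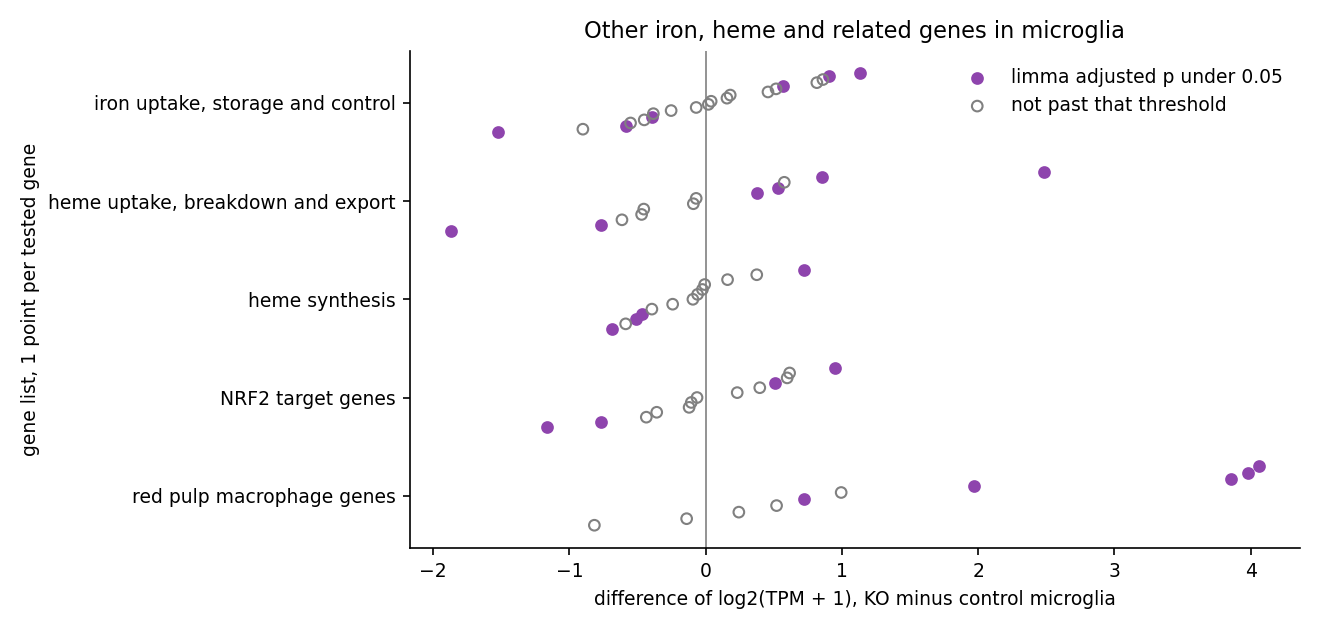
Difference of log2(TPM + 1), KO minus control microglia, on the x axis for each tested gene of 5 lists on the y axis; filled points passed limma's adjusted p of 0.05 and open points did not. The iron, heme and NRF2 lists spread to both sides of 0, while the filled points of the red pulp macrophage list lie to the right. Pparg is drawn there as a filled point although it met the filter through KO microglia alone. Its test is not used in the text, and its place is no part of the pattern.

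Markers of other cell types were also summed in the microglia. The 7 erythroid markers in the files, most of them globins, summed to 0.8, 2.7, 563 and 173 TPM in KO microglia and 329, 0.4, 14.4 and 135 TPM in control microglia, and 0 of 4 tested passed. The 7 monocyte markers summed to 26.4 to 29.5 TPM in KO microglia and 6.0 to 11.3 TPM in control microglia, with Chil3 at 0 in both. The 8 neuronal markers summed to 16.8 to 72.6 TPM in KO microglia and 5.1 to 10.3 TPM in control microglia. The 10 astrocyte markers summed to 77.3 to 92.3 TPM in KO microglia and 298 to 630.2 TPM in control microglia. In control microglia most of that sum was Slc1a3, a glutamate transporter that fell, at 36.6 ± 2.36 TPM in KO microglia and 421 ± 153 TPM in control microglia (SD, n = 4 each). Aldoc, an enzyme of glycolysis, rose, with 30.1 ± 5.74 TPM in KO microglia and 12.3 ± 3.82 TPM in control microglia. Gfap, an intermediate filament protein, did not pass, at 7.15 ± 2.56 TPM in KO microglia and 2.38 ± 1.85 TPM in control microglia. The 7 neutrophil markers summed to 9.5 to 11.4 TPM in KO microglia and 28.1 to 71.6 TPM in control microglia, with Ly6g at 0 in both. By mean TPM, most of both sums was Csf3r, the only 1 of the 7 that was tested. It fell, at 9.88 ± 1.06 TPM in KO microglia and 31.2 ± 3.16 TPM in control microglia. The monocyte, neuronal, astrocyte and neutrophil sums did not overlap between genotypes, and the part of these markers and of the erythroid ones in the results was not tested.

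In astrocytes, none of the members passed the test between genotypes. Of the 10 genes, 8 passed the filter on low values and 0 were called by limma at the adjusted p of 0.05. Over all 15231 genes tested, 0.00657% passed that same threshold, which is 1 gene. Slc40a1, Trf and Cp had an unadjusted limma p under 0.05. The share of all genes under that unadjusted level was not counted, so nothing is read from these 3. The median difference of the 8 was 0.19, beside 0.07 over all genes tested. In each of the 5 pathway lists 0 genes passed as well.

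Spic was at 1.6, 0.2, 0.2 and 0.6 TPM in KO astrocytes and at 0, 0.3, 0, 0.2 and 0.2 TPM in control astrocytes, with overlapping groups (exact two-sided permutation test of log2 values over 126 assignments, p = 0.159). Slc11a1 was at 1.3, 0.1, 0.8 and 0.2 TPM in KO astrocytes and 0.3, 0.1, 0.1, 0.3 and 0.4 TPM in control astrocytes (the same exact permutation test, p = 0.286). Both genes were near the smallest value the files can show, since values are rounded to 1 decimal.

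Slc40a1 stood at 20.2, 5.0, 12.4 and 3.9 TPM in KO astrocytes and 3.8, 3.9, 5.1, 5.0 and 3.1 TPM in control astrocytes. KO animals 1 and 3 were high and the other 2 lay among the controls, so the difference of 0.90 ± 0.39 (SE) did not pass (limma, adjusted p = 0.386). Cp showed the same animals high, with 15.3, 2.4, 23.4 and 9.4 TPM in KO astrocytes and 1.5, 2.3, 2.7, 6.6 and 6.3 TPM in control astrocytes, a difference of 1.30 ± 0.55 (SE) (limma, adjusted p = 0.38). In the same order of animals, the 10 mural and fibroblast-like markers summed to 6381, 759.7, 9639 and 3647 TPM in KO astrocytes and 439.9, 201, 1065, 3221 and 2910.2 TPM in control astrocytes. In KO astrocytes Cp followed the order of this sum, and in control astrocytes the 2 libraries with the highest sums had the most Cp; the part of such cells in the value was not tested. In microglia the same sum was only 15.7 to 71.4 TPM in KO and 4.8 to 101 TPM in control libraries. Border-associated macrophage markers summed to 122, 20.6, 45.4 and 27.8 TPM in KO astrocytes and 11.6 to 28.2 TPM in control astrocytes. Endothelial markers summed to 746.9, 389.8, 578.3 and 419.9 TPM in KO astrocytes and 373.3 to 611 TPM in control astrocytes. Both of these sums were highest in KO animal 1, as was Slc40a1, and their part in the values was not tested. Without KO animals 1 and 3, the differences in astrocytes were 0.08 for Slc40a1 and 0.43 for Cp.

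Trf was at 9117, 6375, 7023 and 14424 TPM in KO astrocytes and 6620.2, 4868, 6268, 5649 and 5126 TPM in control astrocytes. KO animal 4 was highest and the groups overlapped, with a difference of 0.63 ± 0.22 (SE) (limma, adjusted p = 0.336). Oligodendrocyte markers summed to 9738, 7386, 8257 and 18894 TPM in KO astrocytes and 6751, 5127, 7746, 7436 and 7197 TPM in control astrocytes, highest in the same KO animal. Per unit of that sum Trf was 0.936, 0.863, 0.851 and 0.763 in KO astrocytes and 0.981, 0.949, 0.809, 0.76 and 0.712 in control astrocytes, overlapping throughout and far under the ratios in microglia.

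**Figure D3:**
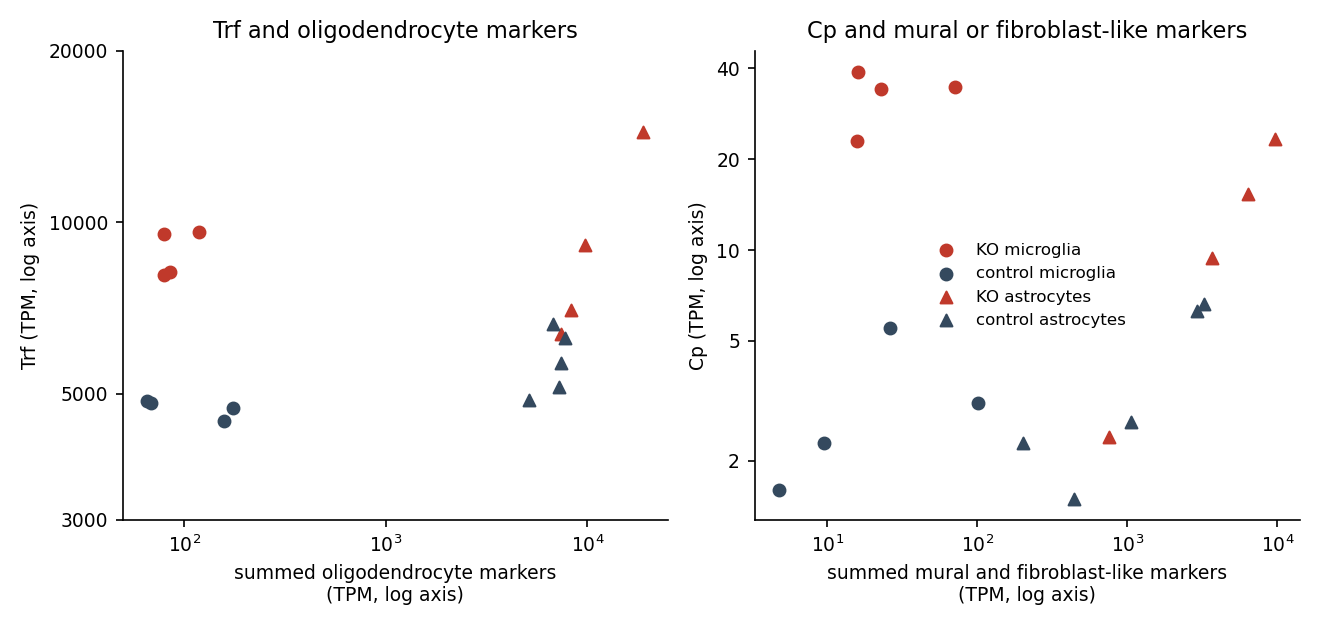
Left, Trf (TPM, log axis) against the summed oligodendrocyte markers (TPM, log axis); right, Cp against the summed mural and fibroblast-like markers on the same kind of axes; 1 point per library, circles for microglia and triangles for astrocytes. Among astrocytes both genes are highest in the libraries with the highest marker sums, while KO microglia lie above control microglia at marker sums in the same range.

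Hmox1 stood at 37.3, 25.7, 29.9 and 20.8 TPM in KO astrocytes and 31.4, 42.9, 36.1, 24.3 and 23.7 TPM in control astrocytes, with a difference of -0.15 and a 95% interval of -0.62 to 0.33 (limma, adjusted p = 0.795). Fth1 was at 2784, 2094, 2348 and 4145 TPM in KO astrocytes and 2821, 2514, 2502, 2406 and 2289 TPM in control astrocytes, a difference of 0.13 with an interval of -0.26 to 0.53. Ftl1 was at 3255, 1964, 2536 and 2748 TPM in KO astrocytes and 2277, 2226, 2353, 1942 and 2125 TPM in control astrocytes, a difference of 0.25 with an interval of -0.06 to 0.55. All 3 overlapped between genotypes, KO animal 4 being the highest for Fth1 and KO animal 1 for Ftl1.

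Tfrc was at 53.7, 92.2, 54.1 and 59.6 TPM in KO astrocytes and 56.2, 49.4, 69.3, 67.4 and 54.1 TPM in control astrocytes, with KO animal 2 above all the others. Slc11a2 was at 6.2, 9.2, 8.2 and 9.1 TPM in KO astrocytes and 7.9, 7.3, 6.8, 7.8 and 8.3 TPM in control astrocytes. Neither passed the test, with intervals of -0.29 to 0.50 for Tfrc and -0.25 to 0.41 for Slc11a2.

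**Figure D4:**
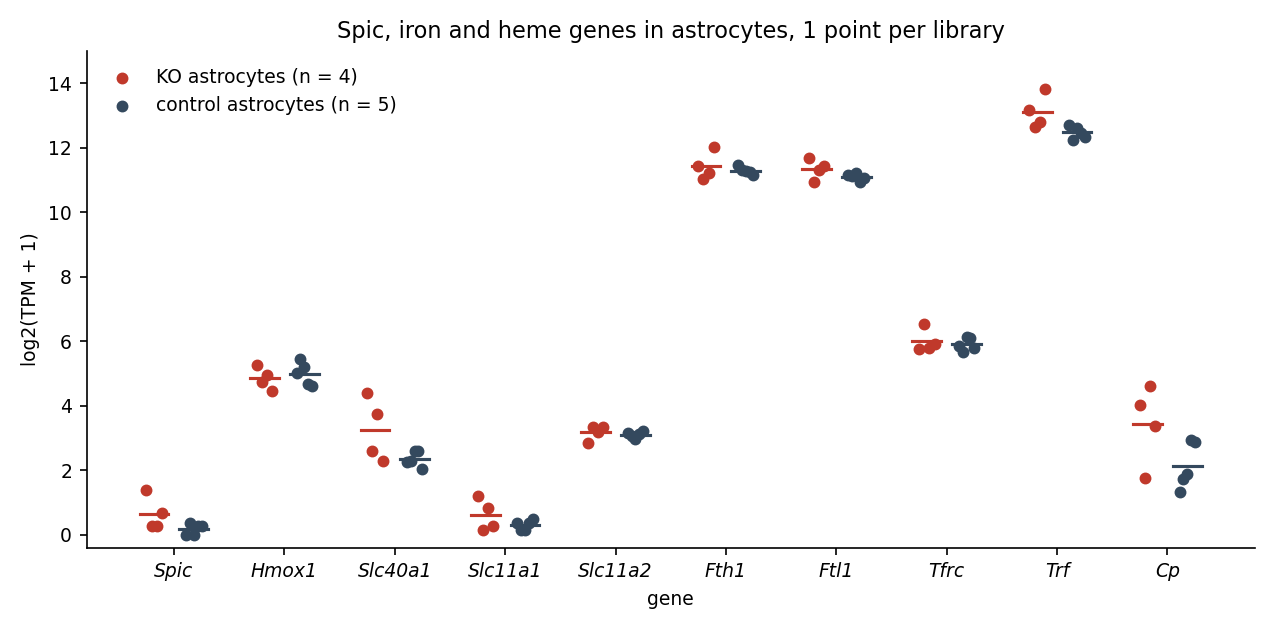
Level of each member as log2(TPM + 1) on the y axis in astrocytes, 1 point per library, with a bar at the group mean; KO astrocytes (n = 4) stand left of control astrocytes (n = 5) for each gene. The groups overlap for all 10 genes, and the KO libraries of Slc40a1 and Cp spread widely.

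The genotype difference itself was compared between the cell types in 1 fit over all 17 libraries, in which 15.5% of 17087 genes passed. Of the 9 members other than Spic, 3 had a higher difference in microglia than in astrocytes (Hmox1, Fth1 and Ftl1), 1 a lower one (Tfrc) and 5 did not pass. The gap was 0.93 ± 0.16 (SE) for Ftl1 (limma, adjusted p = 0.00077) and -1.39 ± 0.29 (SE) for Tfrc (adjusted p = 0.00275). For Fth1 it was 0.82 ± 0.21 (SE) (limma, adjusted p = 0.0148), and with control animals 1 and 2 alone or 3, 4 and 5 alone it did not pass (adjusted p = 0.105 and 0.0636), nor without KO astrocytes 1 and 3 (adjusted p = 0.0726). For Hmox1 it was 0.97 ± 0.27 (SE) (limma, adjusted p = 0.0233). With the animal as a replicate block, microglia and astrocytes being from the same numbered mice, the gap of Hmox1 was 0.91 and did not pass (adjusted p = 0.108); against control animals 3, 4 and 5 alone it was 0.61 (adjusted p = 0.209). Leaving out KO microglia 4 or KO astrocytes 4 also ended that call, at 0.88 and 0.83 (adjusted p = 0.0539 and 0.0517).

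The remaining members gave no call in that fit. Cp had a gap of 1.79 ± 0.69 (SE) (limma, adjusted p = 0.0939), which passed without KO astrocytes 1 and 3, at 2.66 (adjusted p = 0.0134), and without KO astrocytes 3 alone, at 2.18 (adjusted p = 0.0382). Slc40a1 had 0.03 ± 0.46 (SE) (limma, adjusted p = 0.978), and without the same libraries 0.85 (adjusted p = 0.0341). Trf had 0.28 ± 0.25 (SE) (limma, adjusted p = 0.525), and without KO astrocytes 4 it had 0.52 (adjusted p = 0.0443). Spic, with a gap of 5.59 ± 0.44 (SE), is given without a test because its rise in microglia chose the set.

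**Figure D5:**
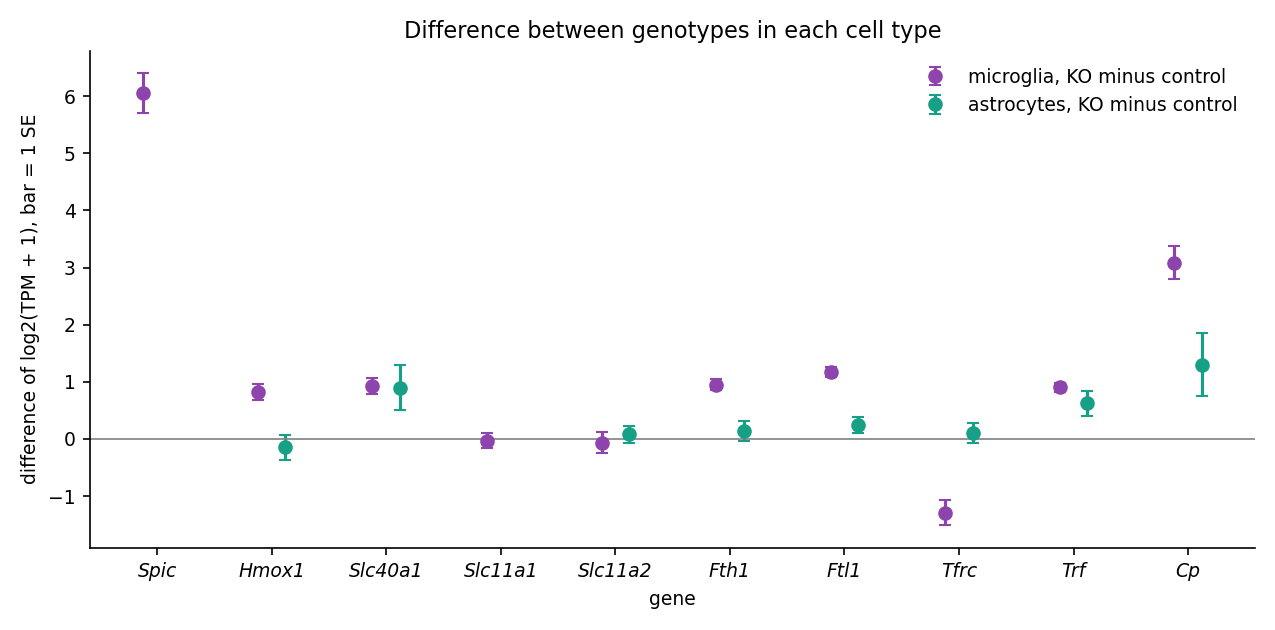
Difference of log2(TPM + 1), KO minus control, on the y axis for each member, in microglia and in astrocytes; bars show 1 standard error, and Spic and Slc11a1 have no astrocyte point because they did not pass the filter there. The points of Hmox1, Fth1, Ftl1 and Tfrc are apart between the cell types, while those of Slc40a1 and Trf lie close.

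The members also differed between the cell types in control animals. Spic, whose control microglia values helped to choose the set, and Slc11a1, which met the filter through microglia alone, are given without a test. Of the other 8, 3 were higher in microglia, 3 were lower and 2 did not pass, where 65.7% of 15332 genes passed. The median of all genes was -0.19 in this comparison and 0.08 after quantile normalization, with none of the 6 called members changing direction. Slc11a1 averaged 149.8 ± 19.2 TPM in control microglia and 0.24 ± 0.134 TPM in control astrocytes (SD, n = 4 and 5). Slc40a1 averaged 198 ± 9.97 TPM in control microglia and 4.18 ± 0.853 TPM in control astrocytes, a difference of 5.28 ± 0.14 (SE) (limma, adjusted p = 3.02e-10). Spic, at 3.18 ± 2.13 TPM in control microglia and 0.14 ± 0.134 TPM in control astrocytes, had libraries that did not overlap between the cell types. Hmox1 was higher by 1.48 ± 0.19 (SE) and Ftl1 by 1.39 ± 0.08 (SE) (limma, adjusted p = 5.51e-05 and 7.7e-08).

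Tfrc and Fth1 were lower in microglia. Tfrc was at 11 ± 2.06 TPM in control microglia and 59.3 ± 8.66 TPM in control astrocytes, and Fth1 was at 1577 ± 179 TPM in control microglia and 2506 ± 198 TPM in control astrocytes. The differences were -2.34 ± 0.16 (SE) and -0.67 ± 0.09 (SE) (limma, adjusted p = 2.81e-07 and 7.14e-05). Trf was slightly lower in microglia, at -0.27 ± 0.09 (SE) (limma, adjusted p = 0.0227), a call that 6 of 18 alternatives lost. The light chain of ferritin exceeded the heavy chain 3.8, 3.55, 3.84 and 3.39 times in control microglia and stood at 0.807, 0.885, 0.941, 0.807 and 0.928 times it in control astrocytes. Slc11a2 and Cp did not pass, with intervals of -0.50 to 0.26 and -1.05 to 0.68.

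Ordered by mean TPM, which is scaled by length, KO microglia ran Ftl1, Trf, Fth1, Slc40a1, Spic, Hmox1, Slc11a1, Cp, Slc11a2 and Tfrc. Neighbours whose libraries overlapped there were Hmox1 and Slc11a1. Control microglia ran Ftl1, Trf, Fth1, Slc40a1, Slc11a1, Hmox1, Tfrc, Slc11a2, Spic and Cp, with overlapping libraries for Tfrc and Slc11a2, and for Spic and Cp. KO astrocytes ran Trf, Fth1, Ftl1, Tfrc, Hmox1, Cp, Slc40a1, Slc11a2, Spic and Slc11a1, with overlap between the neighbours Fth1 and Ftl1, Hmox1 and Cp, Cp and Slc40a1, Slc40a1 and Slc11a2, and Spic and Slc11a1. Control astrocytes ran Trf, Fth1, Ftl1, Tfrc, Hmox1, Slc11a2, Slc40a1, Cp, Slc11a1 and Spic, with overlap between Fth1 and Ftl1, Slc40a1 and Cp, and Slc11a1 and Spic. Spic was thus in the upper part of the list in KO microglia, between Slc40a1 and Hmox1, and at or near its end in the other groups.

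The genes whose pattern over the 17 libraries was most like that of Spic, among 8618 genes averaging 5 TPM or more in KO microglia, were Dok2 (Pearson r = 0.992), F630028O10Rik (0.990), Aoah (0.990), Ms4a14 (0.989) and Dram1 (0.987). Dok2 codes for an adaptor of kinase signalling, Aoah for an enzyme that inactivates bacterial lipopolysaccharide, and Dram1 for a lysosomal membrane protein. Their mean levels in KO microglia were 37.1, 64.6, 85, 19.3 and 6.65 TPM in that order, and in control microglia 1.2, 3.05, 1.83, 1.28 and 0.85 TPM. The libraries share cell type and genotype within 4 groups, so r describes the 4 levels more than the animals. For Cp, among 9874 genes averaging 5 TPM or more in KO astrocytes, the closest were Itga4 (0.941), Ifitm2 (0.929), Ifitm3 (0.928), Egfl7 (0.920) and Tgtp1 (0.884). Itga4 codes for an integrin and is also 1 of the monocyte markers, and Ifitm2 and Ifitm3 code for interferon-induced membrane proteins.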

How the data were processed

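The authors deposited TPM values for 35869 gene symbols, 1 file per library, rounded to 1 decimal. Per the labels' protocols, libraries were sequenced as paired reads of 61 bases; featureCounts 1.6.2, STAR 2.6.1e, cutadapt 1.9.1, Trim Galore 0.4.2 and the build mm10 are listed, per the submitters' processing notes, without their roles. TPM keeps no depth, so depth is unknown and no counting interval is given. Groups followed the titles. Of 18 libraries, 1 was left out because its title is that of another library, and 17 were used.

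Values were log2-transformed after adding 1 TPM, so folds of low genes are understated. Genes reaching 1 TPM in 4 or more of the libraries being fitted were tested two-sided with limma 3.58.1 in R 4.3.3, using a variance trend, at a Benjamini-Hochberg adjusted p of 0.05 over all genes tested. Members under the filter got an exact permutation test. The pipeline was tested on simulated data. Alternatives were other pseudocounts, filters and scalings, a replicate block, each kind of control, and leaving out libraries.

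The members and lists were chosen with earlier results of these data known. The text names all members, up to 4 genes past the threshold per pathway list, ranked by p, and the 5 genes most like Spic and like Cp by Pearson r. Aco1, Ireb2, Cd163, Hps3, Slc1a3, Aldoc and Gfap were added after their values were seen, and 1 gene that the rule names is not reported here. Microglia and astrocytes with the same number come from 1 animal per the labels, and their deviations from the group means correlated at 0.09 to 0.22 in controls. Positions and transcripts are from GENCODE M21. Python 3.11.15, pandas 2.3.3, scipy 1.17.1 and matplotlib 3.10.9 made tables and figures.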

Additional observations from a re-analysis of the deposited data

Results flagged for a closer look

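Among 40 sets of values, 1 per member and group, 2 held a library far from the others, where chance gives about 1 in 20. Fth1 was low in control microglia 4, at 1308.5 TPM against 1656 to 1683 TPM in the other 3 control microglia libraries. Tfrc was high in KO astrocytes 2, at 92.2 TPM against 53.7 to 59.6 TPM in the other 3 KO astrocyte libraries.

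The genotype difference itself differed between microglia and astrocytes for 4 members, by limma over all 17 libraries. The gap on the log2 scale was 0.97 for Hmox1, 0.82 for Fth1, 0.93 for Ftl1 and -1.39 for Tfrc. The calls of Hmox1 and Fth1 were lost in 4 and 3 of 27 alternatives. For Hmox1, the animal as a replicate block was among these.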

How the results depend on the processing

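In microglia, all 7 called members kept their direction and call in each of 17 alternatives. Spic stood between 4.99, with a pseudocount of 5 TPM, and 6.53. Slc11a1 and Slc11a2 were never called, and their sign varied. Across all genes, 2079 were called with a replicate block by number, against 3711 without; KO and control animals share only a number (correlations of deviations from 0.0026 to 0.023), so this block is no paired design. With the block, the gap of Hmox1 between the cell types lost its call (0.91, limma adjusted p = 0.108), and no other call of a member changed.

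In astrocytes no member was called in any of 19 alternatives. Over all genes, 3 were called without a filter, 3 with controls 1 and 2 only, 2 with controls 3, 4 and 5 only, 0 with the replicate block, 0 without KO astrocytes 1 and 3, and 0 to 5 when each library was left out. Between cell types in controls, 6590 genes were called with controls 1 and 2 only, against 10078. Trf lost its call there in 6 settings (adjusted p from 0.0527 to 0.225 in limma): no filter, median-of-ratios scaling, either kind of control alone, and without control microglia 2 or control astrocytes 3. In the contrast of both genotype differences, 2 members were called with controls 3, 4 and 5 only, against 4; Ftl1 and Tfrc were called in each of 27 alternatives. With a pseudocount of 5 TPM, Spic had a gap of 4.86 and Cp passed (adjusted p = 0.0439). The causes were not tested.

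Depth, the strand setting and the treatment of reads with several positions are not given in the sources used here. All KO animals had Xist RNA, so genotype and the kind of animal can be told apart only against control animals 1 and 2.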

Other observations

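The library left out of all groups shares its title with control astrocytes 3 and is labelled as astrocytes, while the name of its deposited file says microglia. As these disagree, its values stand alone here. It held 1.7 TPM of Spic, 70.3 TPM of Hmox1, 189.9 TPM of Slc40a1, 114 TPM of Slc11a1 and 6.6 TPM of Slc11a2. For iron storage and carriage it held 1629.6 TPM of Fth1, 5819 TPM of Ftl1, 7.0 TPM of Tfrc, 4224 TPM of Trf and 2.1 TPM of Cp.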
